A study of Mus musculus with 6 samples.

Results

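The 10 genes described here encode secreted signals that fibroblasts can make to attract or support immune cells: the chemokines Cxcl1, Cxcl5, Cxcl12, Cxcl14, Ccl2 and Ccl7, and the cytokines Il6, Il11, Lif and Csf1. They were chosen by name, with earlier results of these data known. Each was found in the deposited count table through its Ensembl identifier and the GENCODE M21 symbol, giving 10 rows of the 43346 in the table. Expression was compared between 3 libraries of primary mouse embryonic fibroblasts (MEFs) of strain C57BL/6 given 3 µM erastin for 24 h and 3 libraries of the same kind of cells given the solvent DMSO. All 6 libraries came from cells at passage 9, grown in serum-containing medium that also held the reducing agent 2-mercaptoethanol. The labels do not say from how many embryos or separate cultures the cells came, so p-values measure only the spread between these libraries, which may be technical. Erastin blocks the cystine/glutamate antiporter and is used to induce ferroptosis, in which cells die through iron-dependent oxidation of membrane lipids.

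With erastin the 5 tested chemokines fell and 3 of the 4 cytokines rose, where 21.5% of all genes tested were lower and 21.6% higher. Cxcl5, Cxcl12, Cxcl14, Ccl2 and Ccl7 went to between 13.4% and 37.0% of their DMSO level. Il11 rose to 572%, Csf1 to 190% and Lif to 160% of theirs. Il6 did not pass the test, and Cxcl1 had too few reads to be tested. The shared receptor chain of the interleukin-6 family, Il6st, and the feedback gene Socs3 fell as well, while the STAT3-linked kinase gene Pim1 rose.

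Chemokines are small secreted proteins that guide migrating cells along gradients by binding G protein-coupled receptors. CXCL1 and CXCL5 attract neutrophils through CXCR2, CXCL12 retains and guides stem cells and lymphocytes through CXCR4, CXCL14 is made by many resting tissues, and CCL2 and CCL7 attract monocytes through CCR2. Interleukin-6, interleukin-11 and leukemia inhibitory factor belong to one cytokine family, whose receptors all use the chain gp130, encoded by Il6st, and activate the transcription factor STAT3. Socs3 is a target of STAT3 that feeds back on gp130. CSF1 is the growth factor on which most macrophages depend, and its receptor is encoded by Csf1r. Fibroblasts are a known source of these signals in inflamed and healing tissue.

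The libraries held 13333911 to 20509970 counts, so that 3 counts, used as the smallest detectable level, were worth 0.14 to 0.234 CPM (the usual scaling of counts to library size, here with TMM factors). This floor covers counting error only, since PCR-amplified reads are not independent molecules. Libraries of a group resembled each other more than those of the other group (Pearson's r of log2 CPM over genes 0.965 to 0.983 against 0.924 to 0.938; genes are not replicates). Of 14000 genes tested, 3024 (21.6%) were higher and 3004 (21.5%) lower with erastin by edgeR's quasi-likelihood test (Benjamini-Hochberg adjusted p under 0.05), 43.1% in all. The median log2 fold change over all genes tested was -0.0014. These shares are the background for every count of members below. The label of fibroblasts was checked on markers: Col1a1 and Col1a2, the chains of type I collagen, stood at 10976 and 8102 CPM in DMSO, whereas Epcam (epithelium), Pecam1 (endothelium) and Myod1 (skeletal muscle) had at most 15 reads in any library. Other genes of the same marker lists were counted more: the endothelial genes Kdr and Tek reached 185 and 139 reads, and the muscle genes Des and Acta1 1449 and 995 reads.

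Of the 10 members, 9 passed the filter on low counts, and each of these 9 had at least 22 reads in all 6 libraries, so none was tested only through the group in which it was high. Of the 9, 3 passed this test as higher and 5 as lower, against backgrounds of 21.6% and 21.5%. In 8 of the 9, all 3 libraries of one group lay beyond all 3 of the other (background 52.5%): erastin lay above in 3 (background 26.7%) and below in 5 (background 25.8%). The median log2 fold change of the 9 was -1.43, and it was -1.62 over the 5 tested chemokines and 0.80 over the 4 cytokines. With DESeq2 the same counts, 3 higher and 5 lower, were found. Because the members were chosen with earlier results of these data known, their counts beside the background are not independent evidence.

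For every count of markers here, the background was 21.6% of all genes tested higher and 21.5% lower. General fibroblast markers moved with the chemokines. Of 12 such genes 10 were lower and 0 higher (edgeR; 11 and 0 at an unadjusted p-value under 0.05, 11 and 0 with DESeq2), and their fold changes had a median of -0.64 and a lowest value of -1.18 on the log2 scale. Their summed level was 36980 to 40236 CPM in DMSO and 26756 to 28362 CPM in erastin libraries, none of them being at 0, and Col1a1 and Col1a2 had log2 fold changes of -0.73 and -0.84. In bulk RNA, fewer cells of a kind and less RNA per cell cannot be told apart, and the part of this movement in the fall of the chemokines was not tested. Leukocyte and macrophage markers, 12 genes with 10 tested, had 0 higher and 0 lower (edgeR; 2 and 0 at an unadjusted p-value under 0.05, 1 and 0 with DESeq2). They summed to 28.3 to 53.5 CPM in DMSO and 31.6 to 67.2 CPM in erastin libraries, with Ptprc, the pan-leukocyte gene, at 0.898 and 0.718 CPM and Adgre1, a macrophage gene, at 2.76 and 2.66 CPM. Lyz2, the most counted gene of this list, stood at 19.0 ± 7.70 and 31.4 ± 12.0 CPM (mean ± SD of 3 libraries), and Cd68 at 2.00 ± 0.950 and 4.18 ± 1.07 CPM. These are the 2 genes with an unadjusted p-value under 0.05, and their edgeR adjusted p-values were 0.0578 and 0.0548. Endothelial markers summed to 5.43 to 8.84 CPM and 15.7 to 19.0 CPM, with 2 of 4 tested genes higher, Kdr and Tek (log2 fold changes 1.38 and 1.45). Epithelial markers, with 0 of 2 tested genes called by edgeR (0 at an unadjusted p-value under 0.05, 0 with DESeq2), summed to 2.61 to 4.005 CPM and 2.84 to 3.79 CPM. Skeletal muscle markers, with Des higher and Acta1 lower of 2 tested genes (log2 fold changes 0.72 and -1.58), summed to 86.9 to 107 CPM and 82.1 to 90.6 CPM. The part of these cells in the results was not tested.

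**Figure D1:**
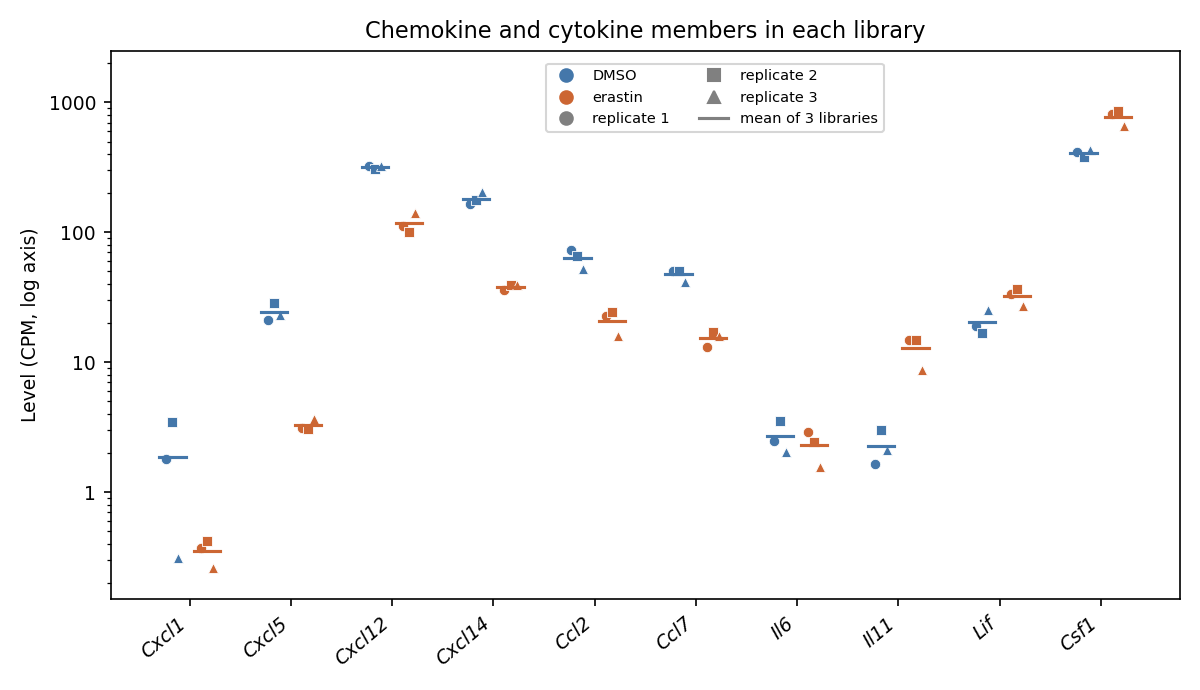
Level of each member in each of the 6 libraries, in CPM on a log axis; symbols mark the replicate number, colours the treatment, and bars the mean of 3 libraries. The 3 erastin libraries lie below the 3 DMSO libraries for Cxcl5, Cxcl12, Cxcl14, Ccl2 and Ccl7, above them for Il11, Lif and Csf1, and overlap with them for Cxcl1 and Il6.

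Of the neutrophil-attracting chemokines, Cxcl5 (ENSMUSG00000029371.6, chr5:90759360-90761624 in GRCm38) had the largest fall among the members. Its level was 21.2, 28.7 and 23.3 CPM in DMSO replicates 1, 2 and 3, and 3.12, 3.05 and 3.63 CPM in erastin replicates 1, 2 and 3. The 2 groups did not overlap, and the erastin libraries lay close together. The log2 fold change was -2.90 (SE 0.19; adjusted p by edgeR = 3.07e-08), a mean level of 13.4% of that in DMSO.

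Cxcl1 (ENSMUSG00000029380.10, chr5:90891241-90893115), 129.6 kb from Cxcl5 on chromosome 5, was near the floor. It had 24, 63 and 4 reads in DMSO replicates 1, 2 and 3, and 8, 7 and 5 reads in the erastin libraries. In CPM this was 1.81, 3.49 and 0.311 against 0.372, 0.419 and 0.259, so that DMSO replicate 3 lay among the erastin libraries and DMSO alone spanned an 11.2-fold range. Cxcl1 was not tested with the filter on low counts. Without that filter its log2 fold change was -2.40 (edgeR adjusted p = 0.00458). That fit gave Cxcl14 an edgeR adjusted p of 1.98e-110, against 5.68e-10 with the filter, so p-values of the 2 fits are not comparable. The groups also overlapped for Cxcl1, and its pass without the filter is not taken as support. In 4 fits that each left out 1 library the smallest group was smaller, and Cxcl1 passed the filter through DMSO replicates 1 and 2 alone. Its values there were -2.91 to -2.24. The edgeR adjusted p-values ran from 0.00178 without DMSO replicate 3 to 0.0672 without erastin replicate 1. It could be tested in these 4 fits only because it was higher in those DMSO libraries, so they support nothing.

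The gene starts of 7 members have a promoter window in the RefSeq table (GRCm38.p6, the assembly also called mm10), each reaching from 250 bases before to 50 bases after the start site. Cxcl5, Ccl2 and Ccl7 have none there. On both strands of these windows 6 motifs were searched: the kappaB decamer bound by NF-kB, the AP-1 site TGANTCA, the CRE-like TGACGTCA, the ATF4 composite element TGATGNAA, the antioxidant response core TGACNNNGC and the TATA box TATAAA. They occur in 8.46%, 7.81%, 1.79%, 3.97%, 12.4% and 13.6% of all 32851 windows of this length, in the same order. No 2 different motifs overlapped in the members' windows, and a match describes letters, not binding. The window of Cxcl1 (chr5:90890995-90891294, plus strand) is shown because it holds 2 overlapping kappaB matches on opposite strands, in capitals, whose first bases lie 71 and 70 bases upstream of the start site.
Cxcl1: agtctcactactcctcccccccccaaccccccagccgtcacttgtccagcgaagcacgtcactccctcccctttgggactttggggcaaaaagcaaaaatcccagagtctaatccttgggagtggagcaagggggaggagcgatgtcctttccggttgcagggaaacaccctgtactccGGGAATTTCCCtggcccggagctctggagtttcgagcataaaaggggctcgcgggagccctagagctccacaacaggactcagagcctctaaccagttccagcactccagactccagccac

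The other CXC members, Cxcl12 and Cxcl14, both fell. Cxcl12 (ENSMUSG00000061353.7, chr6:117168535-117181367) stood at 326, 305 and 324 CPM in DMSO replicates 1, 2 and 3, and at 112, 99.9 and 142 CPM in the erastin libraries. DMSO libraries agreed within 1.07-fold, while the erastin libraries spanned 1.42-fold, erastin replicate 3 being the highest. The log2 fold change of Cxcl12 was -1.43 (SE 0.11; adjusted p by edgeR = 9.21e-08), or 37.0% of the DMSO level.

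Cxcl14 (ENSMUSG00000021508.10, chr13:56288643-56296551) had levels of 165, 178 and 203 CPM in DMSO and of 36.1, 39.2 and 39.0 CPM in erastin replicates 1, 2 and 3. Every erastin library lay far below the lowest DMSO library, and the erastin libraries differed by only 1.09-fold. Its log2 fold change was -2.26 (SE 0.09; adjusted p by edgeR = 5.68e-10), or 20.9% of the DMSO level, and this adjusted p-value was the smallest among the members. Neither Cxcl12 nor Cxcl14 has any of the 6 motifs in its promoter window. That of Cxcl14 (chr13:56296502-56296801, minus strand) is shown as the example of a gene that fell, all in lower case because nothing matched.
Cxcl14: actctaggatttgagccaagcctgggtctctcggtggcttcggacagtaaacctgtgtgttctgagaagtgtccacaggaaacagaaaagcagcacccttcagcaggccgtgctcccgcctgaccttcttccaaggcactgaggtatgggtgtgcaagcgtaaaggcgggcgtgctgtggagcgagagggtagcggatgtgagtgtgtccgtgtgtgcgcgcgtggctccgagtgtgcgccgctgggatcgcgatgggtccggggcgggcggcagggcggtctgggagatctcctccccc

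The monocyte-attracting chemokines Ccl2 and Ccl7 lie 8.26 kb apart on chromosome 11 and fell by nearly the same amount. Ccl2 (ENSMUSG00000035385.5, chr11:82035571-82037453) was at 73.2, 65.5 and 52.7 CPM in DMSO replicates 1, 2 and 3, and at 22.7, 24.2 and 15.9 CPM in the erastin libraries (log2 fold change -1.61 with SE 0.15; edgeR adjusted p = 1.03e-06). Ccl7 (ENSMUSG00000035373.2, chr11:82045712-82047525) was at 50.5, 50.1 and 41.6 CPM in DMSO and at 13.2, 17.2 and 15.9 CPM in erastin replicates 1, 2 and 3 (log2 fold change -1.62 with SE 0.13; edgeR adjusted p = 2.26e-07). For both, replicate 3 was the lowest of the DMSO libraries, and the groups did not overlap. The erastin means were 32.8% and 32.6% of the DMSO means. The span of Ccl2 overlaps that of Gm17268, a gene on the other strand that had 1 read in all 6 libraries together, but the exons of both do not overlap. The remaining members overlap no other annotated gene.

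Other chemokine ligands were measured from a list of 29 genes. Only 7 of them passed the filter on low counts, and 3 of these were lower and 0 higher with erastin (edgeR; 4 and 0 at an unadjusted p-value under 0.05, 3 and 0 with DESeq2). That is 42.9% of the 7, against 43.1% of all genes in either direction, and their median log2 fold change was -0.83. Of the lower genes, Ppbp and Cxcl15 passed the filter through the DMSO libraries, where they were higher. Their direction was thus partly fixed by the filter, and the count of lower genes supports nothing. Cx3cl1, a membrane-bound chemokine, fell from 24.9 ± 3.58 to 14.0 ± 1.20 CPM (mean ± SD of 3 libraries; edgeR adjusted p = 0.000475). Ppbp, known from platelets and lying beside Cxcl5, had 93, 90 and 14 reads in DMSO and 14, 4 and 10 in erastin libraries (log2 fold change -3.18 with SE 0.64; edgeR adjusted p = 0.00106). Cxcl15, with 24, 63 and 26 against 11, 21 and 5 reads, passed at an edgeR adjusted p of 0.0219 but not without DMSO replicate 2, erastin replicate 1 or erastin replicate 3 (0.0749 to 0.133; range over its alternatives 0.00884 to 0.133). Ccl9 stood at 2.09 and 0.867 CPM (edgeR adjusted p = 0.0647), and passed only after an offset for GC content and transcript length (0.0466; range 0.0466 to 0.202).

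Within 500 kb of a chemokine member the table held 7 chemokine genes on chromosome 5 and 6 on chromosome 11. On chromosome 5 the 3 that were tested, Cxcl5, Ppbp and Cxcl15, were lower (background 21.5% of all genes tested). On chromosome 11 the same held for the 2 tested, Ccl2 and Ccl7. Cxcl5, Ccl2 and Ccl7 are members, chosen with earlier results of these data known, so they add nothing to the account above. Ppbp and Cxcl15 owe their passing of the filter to the DMSO libraries, where they were higher, so the direction of these 2 genes was partly fixed by the filter and the count supports nothing. The others had at most 91 reads summed over the 3 libraries of a group, the highest being Cxcl1. These genes are paralogs, and how the counting treated reads shared between copies is not given in the sources used here, which leaves single values of the low genes uncertain.

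The gp130 cytokines Il11, Lif and Il6 differed from each other. Il11 (ENSMUSG00000004371.10, chr7:4772373-4782859), known for its part in fibrosis and bone turnover, had the largest rise of the members. It was at 1.66, 2.99 and 2.10 CPM in DMSO replicates 1, 2 and 3, and at 14.9, 15.0 and 8.71 CPM in erastin replicates 1, 2 and 3. Even the lowest erastin library, replicate 3, was above the highest DMSO library. The log2 fold change was 2.49 (SE 0.30; adjusted p by edgeR = 8.95e-06).

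Lif (ENSMUSG00000034394.10, chr11:4257557-4272514), whose product keeps mouse embryonic stem cells undifferentiated, was at 19.1, 16.7 and 25.1 CPM in DMSO and at 33.7, 36.6 and 27.1 CPM in erastin libraries. The groups did not overlap, though DMSO replicate 3 and erastin replicate 3 came close to each other. The log2 fold change of Lif was 0.68 (SE 0.16; adjusted p by edgeR = 0.00324), with a range of 0.557 to 0.857 over the alternatives run.

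Il6 (ENSMUSG00000025746.7, chr5:30013114-30019981), the family's best known inflammatory member, was at 2.49, 3.55 and 2.02 CPM in DMSO and at 2.89, 2.45 and 1.56 CPM in erastin replicates 1, 2 and 3. The groups overlapped. Its log2 fold change was -0.23 with a 95% interval of -1.14 to 0.68 (edgeR adjusted p = 0.693). In DMSO, Il6 and Il11 had nearly the same level per transcript length (1.15 and 1.16 CPM per kb), and with erastin Il11 was at 6.61 and Il6 at 0.981 CPM per kb.

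The promoter windows of all 3 gp130 cytokines hold an AP-1 match. They are shown with the matches in capitals. Il11 (chr7:4778092-4778391, minus strand) has the AP-1 match 98 bases upstream of this start site and nothing else, and its other annotated start has no match to the 6 motifs. Lif (chr11:4257318-4257617, plus strand) has an AP-1 match at 228, a kappaB match at 178 and an antioxidant response core on the opposite strand at 241 bases upstream. Il6 (chr5:30012864-30013163, plus strand) has an AP-1 match at 249 and a kappaB match at 44 bases upstream. Il11 and Lif, which rose, and Il6, which did not pass, thus share this match.
Il11: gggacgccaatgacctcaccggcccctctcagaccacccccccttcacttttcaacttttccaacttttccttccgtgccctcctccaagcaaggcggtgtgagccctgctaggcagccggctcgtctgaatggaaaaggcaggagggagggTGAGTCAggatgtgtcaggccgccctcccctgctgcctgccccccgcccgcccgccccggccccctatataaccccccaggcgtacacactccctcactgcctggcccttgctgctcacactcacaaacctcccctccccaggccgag
Lif: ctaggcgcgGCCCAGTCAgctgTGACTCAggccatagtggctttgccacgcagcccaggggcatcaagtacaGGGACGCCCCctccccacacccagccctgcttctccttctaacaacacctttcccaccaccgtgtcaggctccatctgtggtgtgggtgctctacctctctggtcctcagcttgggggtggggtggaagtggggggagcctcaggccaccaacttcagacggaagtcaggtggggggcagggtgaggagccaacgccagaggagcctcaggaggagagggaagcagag
Il6: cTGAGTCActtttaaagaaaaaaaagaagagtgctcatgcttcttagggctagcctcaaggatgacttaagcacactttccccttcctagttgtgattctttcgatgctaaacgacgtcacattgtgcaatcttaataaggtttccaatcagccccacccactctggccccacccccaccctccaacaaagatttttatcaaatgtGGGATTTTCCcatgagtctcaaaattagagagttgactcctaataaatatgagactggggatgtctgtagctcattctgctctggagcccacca

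Csf1 (ENSMUSG00000014599.6, chr3:107741048-107760469) was the most counted member in both groups. Its level was 418, 381 and 433 CPM in DMSO replicates 1, 2 and 3, and 809, 865 and 663 CPM in erastin replicates 1, 2 and 3. The log2 fold change of Csf1 was 0.92 (SE 0.09; adjusted p by edgeR = 1.41e-06). All 3 erastin libraries lay above all 3 DMSO libraries, and the mean went from 411 to 779 CPM. Its promoter window (chr3:107760420-107760719, minus strand) is shown because it holds a kappaB match, on the opposite strand, beginning 154 bases upstream.
Csf1: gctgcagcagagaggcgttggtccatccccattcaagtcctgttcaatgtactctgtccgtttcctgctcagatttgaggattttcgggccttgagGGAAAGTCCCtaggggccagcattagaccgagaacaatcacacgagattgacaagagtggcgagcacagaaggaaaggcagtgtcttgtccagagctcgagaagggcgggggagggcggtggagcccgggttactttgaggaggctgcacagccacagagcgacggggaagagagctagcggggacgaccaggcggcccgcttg

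Erastin replicate 3 had the lowest value of the 3 erastin libraries for each of the 4 cytokine members. Without that library the log2 fold changes of Il11, Lif and Csf1 were 2.71, 0.80 and 1.03, and all 3 still passed. The chemokines did not all share this order. Erastin replicate 3 was the highest for Cxcl5 and Cxcl12 and the lowest for Ccl2 and for Cxcl1, which was near the floor.

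Summed over the 6 chemokine members, the level was 638 ± 7.06 CPM in DMSO (mean ± SD of 3 libraries) and 196 ± 18.1 CPM with erastin, or 30.7%. The 4 cytokine members summed to 436 ± 29.3 and 827 ± 113 CPM, most of it Csf1. All 10 together came to 1074 ± 36.2 and 1023 ± 95.4 CPM.

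Per kilobase of the longest annotated transcript, Cxcl14 and Csf1 stood highest in DMSO, at 99.7 ± 10.5 and 98.3 ± 6.40 CPM per kb, and their library ranges overlapped. Ccl7, Ccl2 and Cxcl12 followed at 59.2, 58.2 and 56.6 CPM per kb, also with overlapping ranges. Cxcl5 (13.1) and Lif (5.04) were each apart from their neighbours, and Il11, Il6 and Cxcl1 overlapped near 1 CPM per kb. With erastin Csf1 was alone at the top, at 187 ± 25.0 CPM per kb. Cxcl12, Cxcl14, Ccl7 and Ccl2 then lay together between 19.1 and 20.95 CPM per kb, each with a range overlapping that of the next. Il11 moved from rank 8 to rank 7, and Cxcl5 from rank 6 to rank 8, below both Lif and Il11.

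**Figure D2:**
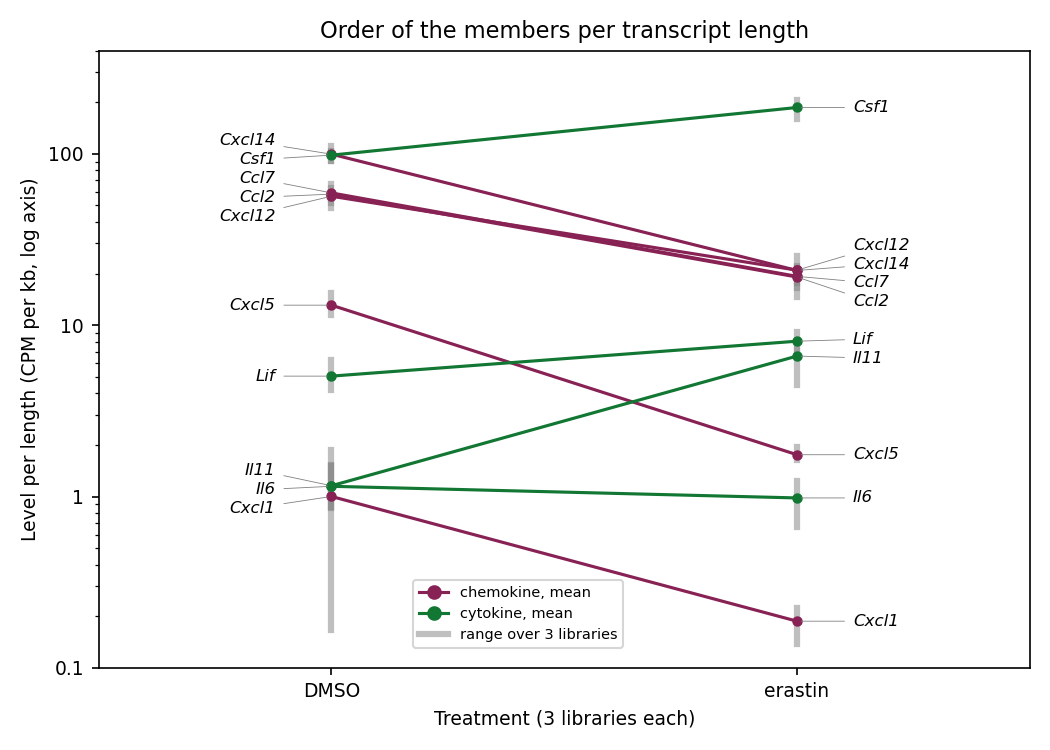
Mean level of each member per kilobase of its longest transcript (CPM per kb, log axis) in DMSO and erastin, with grey bars for the range over 3 libraries. Cxcl12, Cxcl14, Ccl7 and Ccl2 lie between 19.1 and 20.95 CPM per kb with erastin, while Csf1 reaches 187 CPM per kb.

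Receptors for the members, together with the related Osmr and Ackr4, were examined in a list of 16 genes. Of these, 9 passed the filter, with 1 higher and 6 lower (backgrounds 21.6% and 21.5%) and a median of -0.32 on the log2 scale. Osmr and Ackr4 are both among the 6 lower genes, so that count is not one of receptors for the members alone. Il6st, the shared gp130 chain, was at 826, 914 and 883 CPM in DMSO and at 430, 414 and 491 CPM in erastin libraries, with no overlap (log2 fold change -0.98 with SE 0.08; edgeR adjusted p = 1.62e-07). Lifr, the second chain of the LIF receptor, fell from 85.4 ± 9.24 to 34.4 ± 7.71 CPM (mean ± SD of 3 libraries; edgeR adjusted p = 2.58e-06). Il11ra1, which binds interleukin-11, fell from 34.99 ± 0.822 to 19.8 ± 2.47 CPM (edgeR adjusted p = 9.68e-05). The ligand genes Il11 and Lif were thus higher, and the receptor genes Il11ra1, Lifr and Il6st lower, in the same libraries. Il6ra, the interleukin-6 binding chain, stood at 8.73 ± 1.69 and 10.5 ± 1.24 CPM and did not pass (log2 fold change 0.27, 95% interval -0.18 to 0.72, edgeR adjusted p = 0.326).

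Osmr, the oncostatin M chain that also pairs with gp130, fell slightly, from 198 ± 3.42 to 162 ± 14.9 CPM (mean ± SD of 3 libraries; edgeR adjusted p = 0.00855), though not without erastin replicate 2 (0.0509; range over its alternatives 0.000794 to 0.0509). Ackr3, a scavenger receptor for CXCL12 and counted as lower, was at 40.1 ± 1.96 and 32.1 ± 1.33 CPM (edgeR adjusted p = 0.0218). It did not pass without DMSO replicate 1, DMSO replicate 2 or erastin replicate 2, with scaling by total count or without the filter (range 0.00941 to 0.0815). Of the signalling receptors on the list, Cxcr4 had at most 14 reads, Cxcr2 at most 3 and Ccr2 0 reads in any library. Ackr4, a scavenger of other chemokines, fell from 9.41 ± 1.16 to 2.86 ± 0.770 CPM (edgeR adjusted p = 0.000142). Ccr1, a receptor that CCL7 can also bind and the one counted as higher, had 6, 13 and 5 reads in DMSO and 69, 50 and 8 in erastin libraries, so erastin replicate 3 overlapped DMSO; its edgeR adjusted p was 0.0298, and it passed in only 1 of the 6 fits that left out a library, that without erastin replicate 3 (range 0.00309 to 0.16). Csf1r stood at 6.89 ± 2.50 and 6.66 ± 1.49 CPM (log2 fold change -0.06, 95% interval -0.69 to 0.58, edgeR adjusted p = 0.898).

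**Figure D3:**
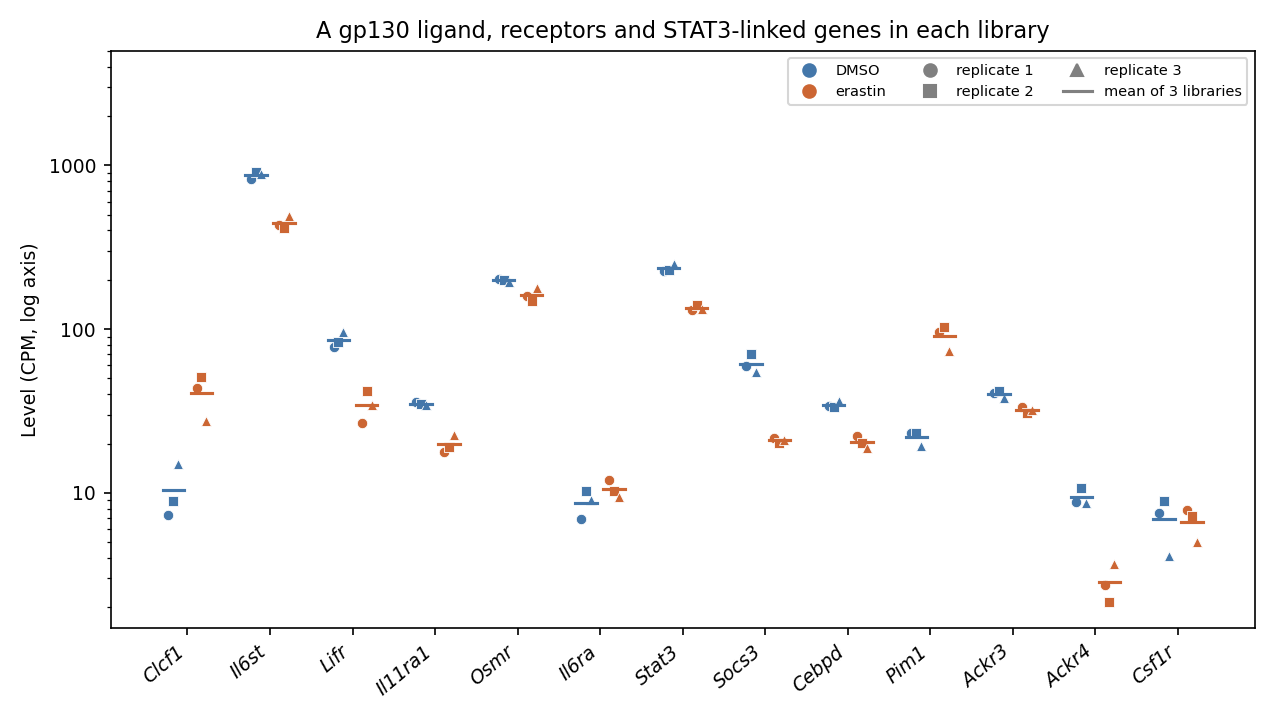
Level in CPM (log axis) of the gp130 ligand Clcf1, of receptors for the members, of the related Osmr and Ackr4, and of STAT3-linked genes in each of the 6 libraries. Symbols mark replicates, colours treatments and bars means. Il6st, Lifr, Il11ra1, Stat3 and Socs3 lie lower in all 3 erastin than in all 3 DMSO libraries, and Clcf1 and Pim1 higher.

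Genes of JAK-STAT3 signalling and its feedback, 16 in the list and 15 tested, were higher in 3 and lower in 6 cases. The backgrounds were 21.6% and 21.5%, and the median of these genes was -0.36 on the log2 scale. Stat3 itself fell from 235 ± 14.1 to 134 ± 5.29 CPM (mean ± SD of 3 libraries; edgeR adjusted p = 8.66e-07). Socs3 was at 59.8, 70.2 and 54.7 CPM in DMSO and at 21.7, 20.2 and 20.9 CPM in erastin libraries (log2 fold change -1.56 with SE 0.11; edgeR adjusted p = 7.77e-08). Cebpd, a transcription factor gene induced by STAT3, fell by 0.76 on the log2 scale (edgeR adjusted p = 0.000143). Pim1, a kinase gene that STAT3 can also induce, went the other way and rose from 21.9 ± 2.20 to 90.8 ± 15.2 CPM (log2 fold change 2.05 with SE 0.13; edgeR adjusted p = 1.84e-08), the largest change on this list. The other 2 genes that rose were Junb and Jak1, by 0.60 and 0.28 on the log2 scale.

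Among 20 other cytokines and growth factors that act on myeloid and related cells, 11 were tested, with 2 higher and 5 lower. The backgrounds were 21.6% and 21.5%, and the median of the 11 was -0.46 on the log2 scale. Without erastin replicate 1, 3 were lower. Clcf1, another gp130 ligand, rose from 10.4 ± 4.11 to 40.6 ± 12.0 CPM (mean ± SD of 3 libraries; log2 fold change 1.97 with SE 0.25; edgeR adjusted p = 1.57e-05), and erastin replicate 3 was again its lowest erastin library. Kitl, the stem cell factor gene, rose from 18.9 ± 1.80 to 46.6 ± 1.45 CPM (edgeR adjusted p = 4.49e-07). Il1rn, which encodes the interleukin-1 receptor antagonist, fell from 122 ± 11.6 to 19.4 ± 4.68 CPM (log2 fold change -2.65 with SE 0.14; edgeR adjusted p = 3.35e-09). Il18 had 11, 18 and 15 reads in DMSO and 1, 0 and 0 in erastin libraries. It passed the filter on low counts only through the DMSO libraries, so it could be tested only because it was higher there, and its place among the 5 lower genes supports nothing. The upstream cytokines Il1a and Il1b had 0 reads in any library, which allows up to 0.234 CPM at the floor of 3 counts per library.

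The NF-kB pathway and its target genes, 30 in the list and 29 tested, showed no common direction: 9 were higher and 4 lower, 44.8% called against a background of 43.1%, and the median log2 fold change was 0.01. Without DMSO replicate 2, erastin replicate 1 or erastin replicate 2, 4 were higher. Tnfaip2, a gene induced by tumor necrosis factor, rose from 126 ± 9.31 to 276 ± 33.8 CPM, and Ikbkg, which encodes the regulatory subunit of the IkB kinase, from 75.4 ± 3.37 to 132 ± 6.03 CPM (mean ± SD of 3 libraries; edgeR adjusted p = 2.43e-07 and 1.69e-06). Il1r1, the interleukin-1 receptor gene, fell from 60.5 ± 7.29 to 28.0 ± 1.15 CPM, and Myd88, the adaptor of that receptor, from 33.1 ± 1.33 to 18.6 ± 2.53 CPM (edgeR adjusted p = 1.29e-06 and 0.000144).

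Among 14 regulators of cytokine mRNA stability, all tested, there were 6 higher and 3 lower, against backgrounds of 21.6% and 21.5%. Their median was 0.25 on the log2 scale. Only 1 was lower without DMSO replicate 1, DMSO replicate 2, erastin replicate 1 or erastin replicate 2. Arid5a, whose product is known to stabilise Il6 mRNA, rose from 10.9 ± 2.20 to 47.7 ± 7.58 CPM (mean ± SD of 3 libraries; log2 fold change 2.12 with SE 0.16; edgeR adjusted p = 1.32e-07), while Il6 itself did not pass. Tia1 and Tial1, related RNA-binding proteins that repress translation, were higher by 0.59 and 0.52 (edgeR adjusted p = 0.00127 and 0.00154). Rc3h2, which encodes a roquin that promotes mRNA decay, was higher by 0.40 (edgeR adjusted p = 0.000801), but did not pass after the offset for GC content and length, with or without the replicate block (0.135 and 0.161; range over its alternatives 7.21e-06 to 0.161).

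**Figure D4:**
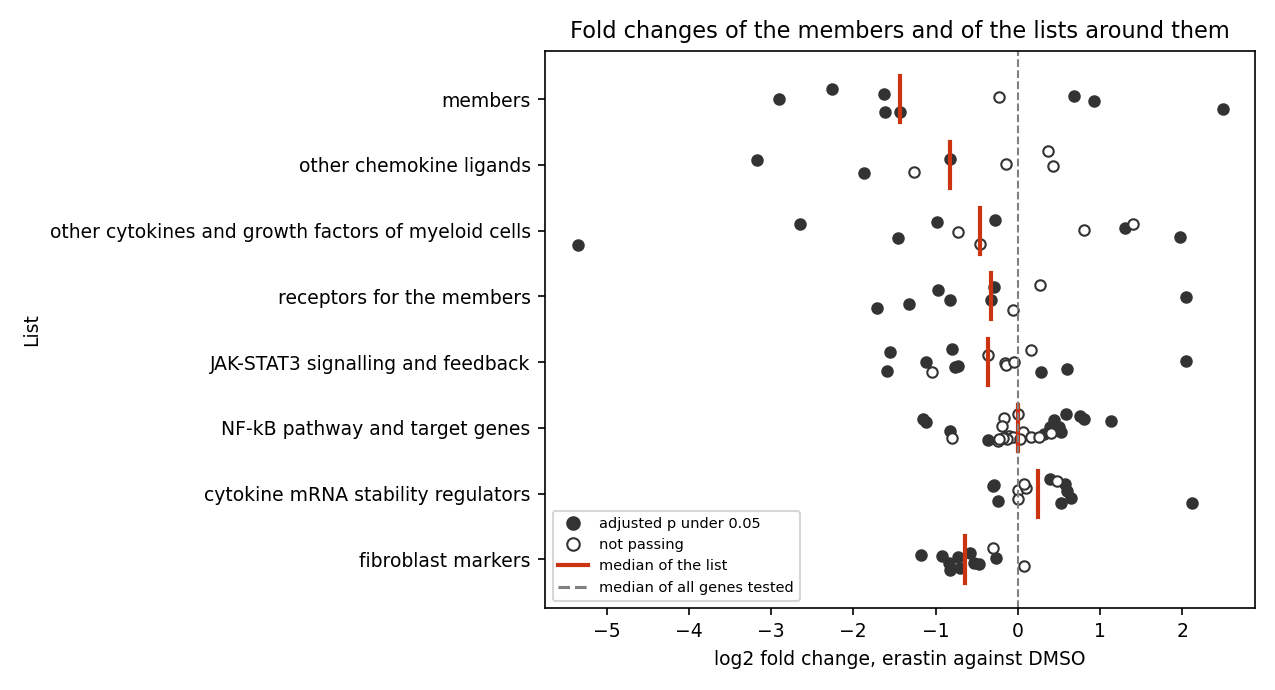
Log2 fold change, erastin against DMSO, of the 9 tested members and of the tested genes of each list; filled points passed at an adjusted p-value under 0.05, red bars are list medians, and the dashed line is the median of all genes tested. The members that passed split into falls of -2.90 to -1.43 and rises of 0.68 to 2.49. Il6, which did not pass, lies between them at -0.23, and the NF-kB genes centre near 0.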

How the data were processed

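The deposited table holds raw read counts per gene for 6 libraries, which the authors did not normalise. Per the submitters' processing notes, HTSeq 0.9.1 and SAMtools were used with build mm10; the aligner, annotation release and strand setting are not given in the sources used here. Per the labels' protocols, total RNA was freed of ribosomal RNA, fragmented by heat, made into PCR-amplified libraries, and sequenced on an Ion Proton. Header cells 11 to 16 match the sample numbers in the labels, and 0 columns were left unused. Identifiers were matched without version to GENCODE M21 (42462 of 43346, 98%), which also gave coordinates and transcript lengths.

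Counts were tested with edgeR 4.0.16 in R 4.3.3: filterByExpr (minimum count 10, total 15, smallest group 3), TMM factors, then glmQLFit and glmQLFTest with a treatment term alone, fitted to the 6 libraries, and Benjamini-Hochberg adjustment over 14000 genes (threshold 0.05). SEs came from the fitted weights and posterior quasi-dispersion. The procedure was also run on simulated counts in which far fewer genes changed than were called here. That run therefore does not measure its error rates in these data. Alternatives were RLE and upper-quartile factors, total-count scaling, 2 other filters (none; 1 CPM in 3 libraries), a replicate block, an offset for GC content and length (mgcv 1.9-3), DESeq2 1.42.0, and leaving out each library. Named genes are the members, the 4 smallest p-values of each of 6 lists, every tested receptor, and set markers; Cxcr2, Cxcr4, Ccr2, Il1a and Il1b were added for their low counts, and Kdr, Tek, Des, Acta1, Lyz2, Cd68, Junb and Jak1 for their values, after these were seen. The members and lists were chosen with earlier results of these data known.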

Additional observations from a re-analysis of the deposited data

How the results depend on the processing

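The counts of members, 3 higher and 5 lower, held under all 15 alternatives except that 6 were lower where Cxcl1 could be tested and passed: without the filter and in 2 of the fits that left out a library. In those 2 fits Cxcl1 passed the filter on low counts only through DMSO libraries where it was higher, so its place among the lower members there supports nothing. Its pass without the filter is not taken as support either, because p-values of that fit are not comparable with those of the main fit. Of 135 values for the 9 tested members, 134 kept their direction and side of the threshold. The exception was Il6, which ran from -0.433 to 0.0272 when 1 library was left out, the positive value being that without DMSO replicate 2. With the replicate number as a replicate block 3 members were higher and 5 lower, and 5882 of all genes passed against 6028. Deviations of equally numbered libraries correlated at 0.0401, 0.00379 and -0.0055, and 3 of 6 libraries correlated best with their own number. These values show no clear pairing by number, but so few libraries cannot exclude one. For the other 31 named genes 439 of 463 values were unchanged in this sense. Csf1r, near 0, turned to 0.00703 with total-count scaling, 0.00522 after the GC and length offset and 0.0551 with the block added, and ran from -0.317 to 0.189 with 1 library left out. List counts moved by over 1.5 times in these cases: other chemokines lower, 5 without the filter; receptors higher, 0 with the 1 CPM filter and 0 with the offset and block, and 0 to 1 with 1 library left out; stability regulators lower, 1 with total-count scaling, without the filter, and after the offset with or without the block, and 1 to 3 with 1 library left out; other cytokines lower, 3 to 5, and NF-kB genes higher, 4 to 9, with 1 library left out. The causes were not tested. Where only 2 libraries of a group remained, the spread was pooled over genes and groups. Depth limits Cxcl1, Il6 and the low chemokines.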
